A study of Mus musculus with 38 samples.

Results

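XEN-like and ectoderm-like cells, the populations into which mouse embryonic stem cells (mESCs) divided under retinoic acid (RA), were compared after 96 h of exposure. The comparison rests on 4 of the 38 samples of the study, identified by their labels: 2 bulk RNA-seq libraries of sorted XEN-like cells (PDGFRA+/CD24-) and 2 of sorted ectoderm-like cells (CD24+/PDGFRA-). The study followed E14 cells, a single mESC line, through RA differentiation with bulk and single-cell RNA-seq. All cells had been kept in 2i/L, a medium with a MEK inhibitor, a GSK3 inhibitor and LIF that holds mESCs in the pluripotent state. They were then moved to N2B27 medium without these factors and with 0.25 µM all-trans RA. Antibodies against PDGFRA and CD24 and fluorescence-activated cell sorting separated the populations, with gates set on undifferentiated mESCs. The labels call both libraries of a population biological replicates and do not say whether equal replicate numbers mark the same culture. A pair of mESC libraries from 2i/L served as a reference level and entered the fit as a group of their own.

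Extraembryonic endoderm (XEN) descends from the primitive endoderm of the blastocyst. Its parietal branch secretes the basement membrane around the yolk sac, and its visceral branch takes up and carries nutrients for the embryo. The neural branch of the ectoderm is instead marked by SOX and PAX transcription factors, N-cadherin and cellular RA-binding proteins. RA acts through nuclear receptors on genes such as the Hox genes and on the enzymes that make and degrade it, and is known to drive mESCs towards neuroectoderm and XEN.

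Expression was measured as unique molecular identifiers (UMIs), tags by which each captured mRNA molecule is counted once, at the 3′ ends of mRNAs. The XEN-like libraries held 1969024 and 1097157 UMIs and the ectoderm-like libraries 1799301 and 1547817. Levels are given as counts per 1000000 UMIs of the library (CPM), with replicate 1 before replicate 2. These are levels of bulk RNA, in which fewer cells of a type and less RNA per cell cannot be told apart. The transcripts of the sort antigens were checked first. Pdgfra had 144 and 143 CPM in XEN-like libraries and 3.33 and 36.8 CPM in ectoderm-like libraries, and Cd24a had 9.14 and 14.6 CPM in XEN-like libraries and 268 and 388 CPM in ectoderm-like libraries. The groups did not overlap for either gene, and each was high on the side its gate required.

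Further markers of the populations were chosen with earlier results of these data known, so they describe the groups and are no independent check. Gata6 and Lama1 were higher in both XEN-like libraries, and Crabp2 and Cdh2 in both ectoderm-like libraries. Ectoderm-like replicate 2 nevertheless stood apart, since it held more XEN transcripts than replicate 1. Each of 11 XEN markers (the factors Gata4, Gata6 and Sox17, the laminin genes Lama1, Lamb1 and Lamc1, the collagen genes Col4a1 and Col4a2, with Sparc, Dab2 and Pdgfra) was higher in ectoderm-like replicate 2 than in replicate 1. Relative to the XEN-like mean the median marker stood at 5.12% in replicate 1 (range 2.33% to 10.2%) and at 21.8% in replicate 2 (8.79% to 29.9%), and the summed level of the 11 genes was 485 and 1779 CPM, against 12049 and 6664 CPM in the XEN-like libraries. None of the 11 was at 0 in either ectoderm-like library. In the reverse direction, 13 ectoderm markers stood at a median of 2.79% and 2.72% of the ectoderm-like mean in the XEN-like libraries, from 0 for Pax6 in both to 54.0% for Mdk in replicate 1 and 29.5% for Meis1 in replicate 2. What part the XEN transcripts of ectoderm-like replicate 2 had in the differences was not tested, and the values without that library are given instead. The endoderm transcripts of ectoderm-like replicate 2 were not in the proportions of the XEN-like libraries throughout. Rbp4, which carries retinol in blood, had 22.3 and 19.1 CPM in the XEN-like libraries but 3.33 and 72.4 CPM in the ectoderm-like libraries. Ttr, a thyroid hormone carrier made by visceral endoderm, had 25.9 and 90.2 CPM in XEN-like and 42.2 and 183 CPM in ectoderm-like libraries. For both genes ectoderm-like replicate 2 was above both XEN-like libraries.

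Across the 8947 genes with enough counts for a test, 625 were higher in XEN-like and 514 were higher in ectoderm-like cells (edgeR's quasi-likelihood test over 3 groups of 2 libraries, Benjamini-Hochberg adjusted p under 0.05). These are 6.99% and 5.74% of the genes tested, the background against which the gene lists below are read. The median log2 fold change (XEN-like over ectoderm-like) was -0.06 over all genes tested. For genes called it had a median size of 1.88 among those higher in XEN-like cells and 2.57 among those higher in ectoderm-like cells. At least 4-fold differences were found for 288 (46.1%) of the former and 335 (65.2%) of the latter. In each called gene both libraries of the higher group were above both of the lower group, a property that 23.9% of all genes tested also had in the XEN-like direction and 33.8% in the ectoderm-like direction. The counts depended on single libraries. Without ectoderm-like replicate 2, 443 and 224 genes were called (4.5% and 2.27% of 9855 tested), and DESeq2 called 5.54% and 3.16% of the genes tested in full. Without ectoderm-like replicate 1 they were 151 and 145, without XEN-like replicate 1, 318 and 160, and without XEN-like replicate 2, 342 and 214. No called gene that was still tested changed direction in any of these refits. As the groups did not overlap in any called gene, this outcome was nearly fixed in advance and is no check.

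**Figure D1:**
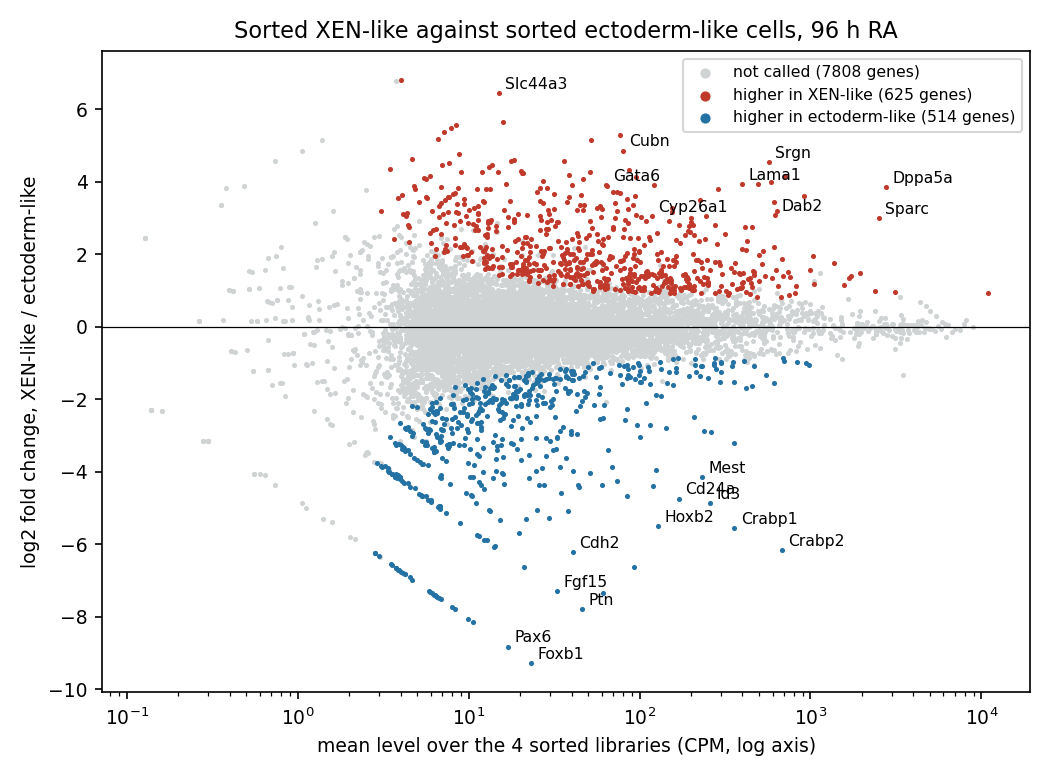
Log2 fold change (XEN-like over ectoderm-like) of the 8947 genes tested, plotted against the mean CPM over the 4 sorted libraries on a log axis. Each point is a gene, red where called higher in XEN-like cells (625 genes), blue where called higher in ectoderm-like cells (514 genes) and grey where not called; the diagonal streaks at the lower left are genes with few or no UMIs in the XEN-like libraries, whose fitted fold change depends on the prior count.

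The transcription factors of the XEN lineage were higher in XEN-like cells with 1 exception among those tested. Of 13 listed factors 11 were tested and 10 were higher in XEN-like cells (90.9%), with a median log2 fold change of 2.91. Gata6, a zinc finger factor that specifies primitive endoderm, had 148 and 91.1 CPM in XEN-like libraries and 6.11 and 11.0 CPM in ectoderm-like libraries. The XEN-like libraries were both above the ectoderm-like ones (edgeR, log2 fold change 3.90, SE 0.40, adjusted p = 0.000674). Its paralog Gata4 had 102 and 78.4 CPM in XEN-like and 3.33 and 22.6 CPM in ectoderm-like libraries (log2 fold change 2.91, SE 0.60, adjusted p = 0.00991). The SOX family factors of endoderm were higher as well, Sox17 with 149.8 and 118 against 11.7 and 40.1 CPM (log2 fold change 2.47, SE 0.49, adjusted p = 0.0077) and Sox7 with 48.2 and 29.2 against 0.556 and 3.88 CPM (log2 fold change 4.25, SE 0.63, adjusted p = 0.00208). In all 4 genes ectoderm-like replicate 2 was the higher library of its group. Foxq1, Cited1, Tbx3, Klf5 and Klf6 were among the other factors called, with log2 fold changes between 2.07 and 3.48. Foxa2, an endoderm factor that is also active in the neural midline, was not called, with 32.5 and 21.9 CPM in XEN-like and 12.8 and 28.4 CPM in ectoderm-like libraries, so that the groups overlapped. Without ectoderm-like replicate 2, 8 factors were called, and the log2 fold changes of Gata4, Sox17 and Sox7 were 4.94, 3.73 and 6.16. Without ectoderm-like replicate 1, XEN-like replicate 1 or XEN-like replicate 2 the number called was 5, 6 and 9. Gata4, Gata6, Sox7 and Klf6 were called in all 4 of these refits. The Sox17 call was lost without ectoderm-like replicate 1 and the Cited1 call without XEN-like replicate 2, and the others were each lost without XEN-like replicate 1 or ectoderm-like replicate 1.

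**Figure D2:**
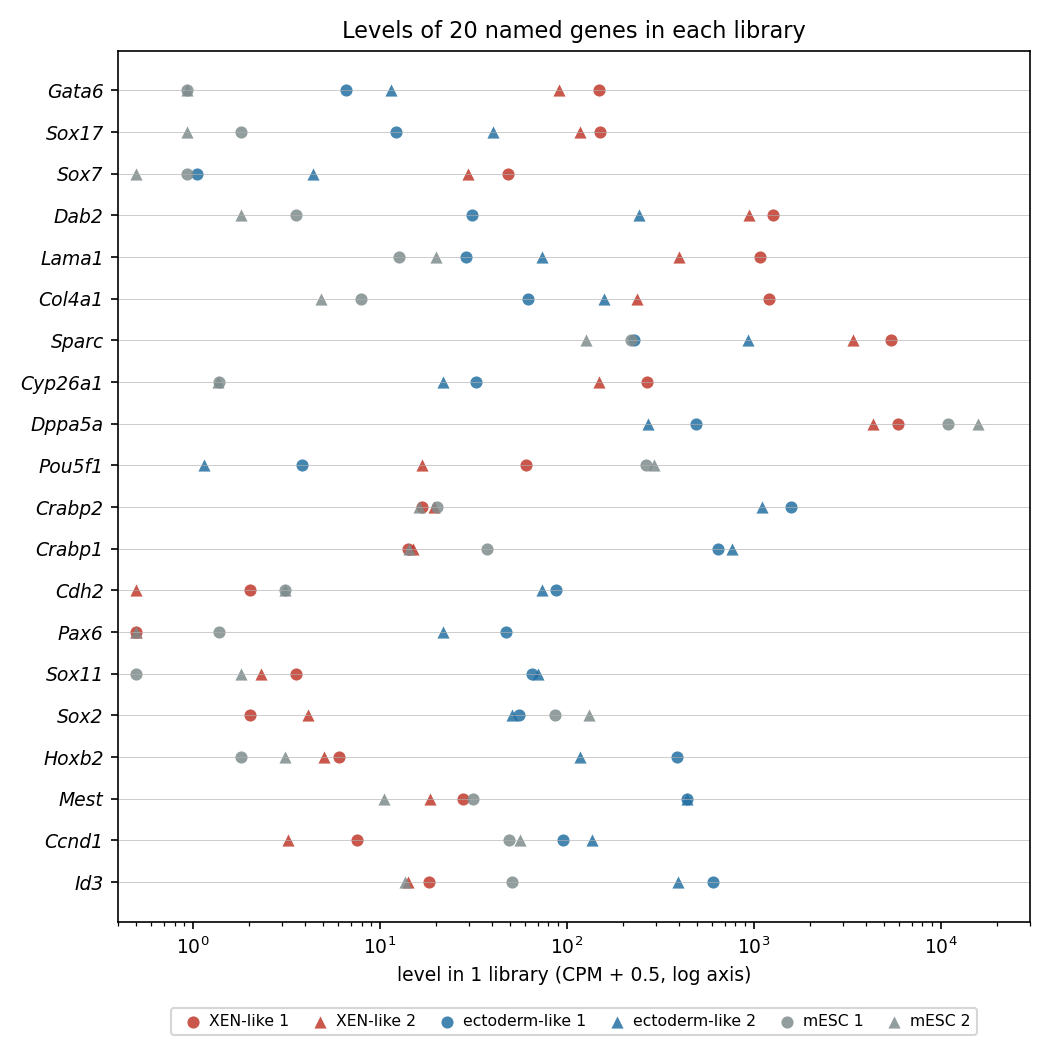
Level of 20 named genes in each library, as CPM plus 0.5 on a log axis; colour gives the population (red XEN-like, blue ectoderm-like, grey mESC) and shape the replicate number (circle 1, triangle 2), with 1 point a library. XEN markers lie higher in ectoderm-like replicate 2 than in replicate 1, whereas Dppa5a and Pou5f1 lie lower there. The 20 genes are all called genes, and none of the called genes has overlapping XEN-like and ectoderm-like points. Of all genes tested, 23.9% have no overlap in the XEN-like direction and 33.8% in the ectoderm-like direction.

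Genes of the basement membrane, the sheet of laminin, collagen IV and nidogen under epithelia, were next. Of 16 tested, 8 were higher on the XEN-like and 0 on the ectoderm-like side (50.0% against 6.99% of all genes), with a median log2 fold change of 1.88. All 3 laminin-111 chains were called. Lama1 had 1085 and 401 CPM in XEN-like libraries and 28.3 and 73.0 CPM in ectoderm-like libraries (log2 fold change 3.93, SE 0.52, adjusted p = 0.00136). Lamb1 had 1366 and 855 against 56.1 and 161 CPM (log2 fold change 3.43, adjusted p = 0.0012), and Lamc1 had 776 and 297 against 33.3 and 47.2 CPM (log2 fold change 3.80, adjusted p = 0.00069). Both chains of collagen IV differed strongly within groups. Col4a1 had 1208 and 236 CPM in the XEN-like libraries and 61.7 and 158 CPM in the ectoderm-like libraries. Col4a2 had 353 and 81.1 CPM in XEN-like and 22.2 and 52.3 CPM in ectoderm-like libraries. In both genes XEN-like replicate 2 was nearer to ectoderm-like replicate 2 than to XEN-like replicate 1. They were called (log2 fold change 2.75, adjusted p = 0.0141, and log2 fold change 2.60, adjusted p = 0.0129), but neither call held without XEN-like replicate 1 or without ectoderm-like replicate 1. Sparc, a collagen-binding matrix glycoprotein, had the highest level of the list, 5454 and 3413 CPM against 228 and 935 CPM (log2 fold change 2.99, SE 0.55, adjusted p = 0.00547). Nid1, which links laminin to collagen IV, and Tinagl1 were also called (log2 fold change 3.45, adjusted p = 0.00085, and log2 fold change 3.73, adjusted p = 0.00513). Fn1, encoding fibronectin, had 14.2 and 8.2 CPM in XEN-like and 43.4 and 23.9 CPM in ectoderm-like libraries and was not called (adjusted p = 0.147). The integrin genes Itga6 and Itgb1, receptors for laminin, were not called either. Without ectoderm-like replicate 2 8 genes of the list were called, and 6 without XEN-like replicate 1 or ectoderm-like replicate 1.

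Col4a1 and Col4a2 lie head to head on chromosome 8 of GRCm38 (chr8:11198423-11312889 on the minus strand and chr8:11312805-11449287 on the plus strand), and their annotated 5′ ends share 84 bases. The 300 bases around the start of Col4a2, from RefSeq on GRCm38.p6 (chr8:11312555-11312854, plus strand, 250 bases before to 50 after the start), are shown because this stretch lies at the start of both genes, and both had far more RNA in XEN-like replicate 1 than in replicate 2. Capitals mark GGGCGG on either strand and CCAAT.
Col4a2: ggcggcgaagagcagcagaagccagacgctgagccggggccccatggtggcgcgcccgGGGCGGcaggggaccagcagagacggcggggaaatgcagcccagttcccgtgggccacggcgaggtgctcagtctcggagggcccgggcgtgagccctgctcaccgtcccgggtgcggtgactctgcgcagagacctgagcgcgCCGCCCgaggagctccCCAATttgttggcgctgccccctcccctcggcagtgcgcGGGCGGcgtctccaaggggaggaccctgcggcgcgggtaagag
GGGCGG was found 3 times, at -192, at -48 on the other strand and at +8 from the start, and CCAAT once at -32. Among all 32851 windows of this length, 35.7% hold GGGCGG and 37.4% hold CCAAT on either strand, so that these letters are common and the match is a description only.

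Enzymes that hydroxylate and fold collagen before secretion were higher in XEN-like cells in 12 of 16 tested cases (75.0%), and 0 were higher in ectoderm-like cells. The prolyl hydroxylase subunit P4ha2 had 412 and 415 CPM in the XEN-like libraries and 23.9 and 54.9 CPM in the ectoderm-like libraries, so that the XEN-like replicates lay close together (log2 fold change 3.49, SE 0.45, adjusted p = 0.00118). P4ha1 had 262 and 258 against 18.3 and 54.9 CPM (log2 fold change 2.93, adjusted p = 0.00321). The lysyl hydroxylase Plod2 had 314 and 362 against 23.3 and 94.3 CPM (log2 fold change 2.62, adjusted p = 0.00729), and Serpinh1, the collagen chaperone HSP47, had 925 and 639.8 against 81.7 and 165 CPM (log2 fold change 2.75, adjusted p = 0.00256). Unlike collagen IV itself, these genes had similar levels in the XEN-like libraries, and all 4 were called in each refit that left out 1 sorted library. The general secretory machinery moved the same way with smaller folds. Of 36 tested genes of protein folding and export at the endoplasmic reticulum, 26 were higher on the XEN-like and 0 on the ectoderm-like side (72.2%), with a median log2 fold change of 1.40. Hspa5, the chaperone BiP, had 1308 and 654 against 427 and 359 CPM (log2 fold change 1.40, adjusted p = 0.026), and Hsp90b1 had 2912 and 1281 against 677 and 635 CPM (log2 fold change 1.75, adjusted p = 0.00467). The protein disulfide isomerase Pdia6 had 1715 and 1232 against 445 and 601 CPM (log2 fold change 1.58, adjusted p = 0.00326). Kdelr3, a receptor that returns proteins to the endoplasmic reticulum, had the largest fold of the list, with 218 and 342 against 17.8 and 44.6 CPM (log2 fold change 3.29, SE 0.47, adjusted p = 0.00178). Xbp1, a transcription factor of secretory cells, had 139 and 129 against 24.5 and 45.9 CPM (log2 fold change 2.03, adjusted p = 0.0056). The calls on Xbp1 and Hsp90b1 were lost without ectoderm-like replicate 1. The stress factor Ddit3 was not called, with 7.11 and 1.82 against 2.22 and 0.646 CPM. Together the 37 listed genes made up 2.14% and 1.66% of all UMIs in the XEN-like libraries, 0.742% and 0.852% in the ectoderm-like libraries and 0.667% and 0.549% in mESCs. The number of calls in this list depended on the libraries used, with 20 without ectoderm-like replicate 2, 21 without XEN-like replicate 2, 15 without XEN-like replicate 1 and 7 without ectoderm-like replicate 1. The Hspa5 call was lost in 3 of these refits and held without XEN-like replicate 2.

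Yolk sac endoderm takes up proteins by endocytosis and secretes carrier proteins. Of 20 listed genes of these functions only 9 had enough counts, and 3 of these were higher in XEN-like cells (33.3%). Dab2, an adaptor that links cargo receptors to clathrin and is a classical endoderm marker, had 1263 and 949.7 CPM in the XEN-like libraries but 30.6 and 242 CPM in the ectoderm-like libraries, with replicate 2 far above replicate 1 (log2 fold change 3.09, SE 0.68, adjusted p = 0.0126). Without ectoderm-like replicate 2 its log2 fold change was 5.39, adjusted p = 0.000925. Cubn (cubilin) had 235 and 74.7 against 1.11 and 10.3 CPM (log2 fold change 4.86, SE 0.70, adjusted p = 0.00192), and Lrp2 (megalin), its partner receptor, had 95.5 and 38.3 against 9.45 and 17.4 CPM (log2 fold change 2.41, adjusted p = 0.00721). The Lrp2 call was lost without XEN-like replicate 1 or ectoderm-like replicate 1. Apoe was not called, with 22.9 and 5.47 CPM in XEN-like, 15.0 and 18.1 CPM in ectoderm-like and 86.6 and 457 CPM in mESC libraries. The call on Rbp4 depended on the ectoderm-like library left out. With both ectoderm-like libraries its log2 fold change was -0.78 (adjusted p = 0.618), and without ectoderm-like replicate 2 it was 2.83, adjusted p = 0.033. Without ectoderm-like replicate 1 it was called in the opposite direction (-1.72, adjusted p = 0.0447). Between 2 and 4 genes of the list were higher in XEN-like cells when 1 sorted library was left out. The lysosomal proteases were higher in XEN-like cells in part. Of 26 tested lysosomal genes 9 were called (34.6%), among them Ctsc with 58.9 and 52.0 against 3.89 and 13.6 CPM (log2 fold change 2.78, adjusted p = 0.00514), Ctsz with 215 and 166 against 30.6 and 42.0 CPM (log2 fold change 2.49, adjusted p = 0.00321) and the ceramidase Asah1 with 398 and 258 against 35.0 and 75.6 CPM (log2 fold change 2.65, adjusted p = 0.00256). The Ctsz call was lost without ectoderm-like replicate 1. Ctsl (cathepsin L) had 1467 and 1823 against 336 and 923 CPM and was not called (adjusted p = 0.0781), but it was called without ectoderm-like replicate 2 (log2 fold change 2.52, adjusted p = 0.0268). Without ectoderm-like replicate 1 only 2 lysosomal genes were called, and 5 without XEN-like replicate 2.

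Dab2 is shown with the 300 bases around its upstream annotated start (RefSeq on GRCm38.p6, chr15:6299539-6299838, plus strand), because it had the highest XEN-like level of the called genes in this list, and Gata4 and Gata6 were among the factors that differed. Capitals mark AGATAA and TGATAA, forms of the GATA motif, on either strand.
Dab2: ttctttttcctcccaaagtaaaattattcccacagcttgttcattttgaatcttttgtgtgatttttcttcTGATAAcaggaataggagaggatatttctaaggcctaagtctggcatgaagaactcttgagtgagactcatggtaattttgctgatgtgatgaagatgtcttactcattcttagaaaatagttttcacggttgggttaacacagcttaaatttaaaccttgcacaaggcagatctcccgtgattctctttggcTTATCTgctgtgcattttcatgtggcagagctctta
TGATAA was found at -179 and AGATAA on the other strand at +15, and neither was found in the window of the second annotated start. AGATAA occurs in 11.2% and TGATAA in 9.05% of the 32851 windows. A wider count over the called genes was not read, because windows matched only 78.9% of the genes higher in XEN-like and 77.2% of those higher in ectoderm-like cells, below the 80% set as the least cover.

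The remaining XEN genes of the list held 11 calls among 19 tested (57.9%), none in the ectoderm-like direction. These calls include Pdgfra, the gene of a sort antigen, whose call adds nothing to the list. Srgn, a proteoglycan of secretory granules, had 1078 and 1116 CPM in XEN-like against 9.45 and 91.1 CPM in ectoderm-like libraries (log2 fold change 4.54, SE 0.71, adjusted p = 0.00266). Here too ectoderm-like replicate 2 was the higher one, and without it the log2 fold change was 7.07, adjusted p = 0.000208. Pth1r, the parathyroid hormone receptor known from parietal endoderm, had 189 and 171 against 2.78 and 19.4 CPM (log2 fold change 4.14, SE 0.61, adjusted p = 0.00201). Fst, an inhibitor of activin, had 117 and 142 against 4.45 and 22.0 CPM (log2 fold change 3.42, adjusted p = 0.00445). The keratin Krt8 was called (log2 fold change 1.78, adjusted p = 0.0189; lost without either XEN-like replicate or ectoderm-like replicate 1), and its partner Krt18 was not, with 100.0 and 138 against 56.7 and 172 CPM and ectoderm-like replicate 2 above both XEN-like libraries. Vim, a filament of mesenchymal and neural cells, had 129 and 147 CPM in XEN-like and 169 and 307 CPM in ectoderm-like libraries and was not called (adjusted p = 0.208). Cldn6, an epithelial tight junction gene, had 154 and 231 against 23.9 and 145 CPM. It was not called with both ectoderm-like libraries (adjusted p = 0.225) and was called without replicate 2 (log2 fold change 3.24, adjusted p = 0.0113). The list had 11 calls without ectoderm-like replicate 2 and without XEN-like replicate 1, 6 without ectoderm-like replicate 1 and 5 without XEN-like replicate 2.

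**Figure D3:**
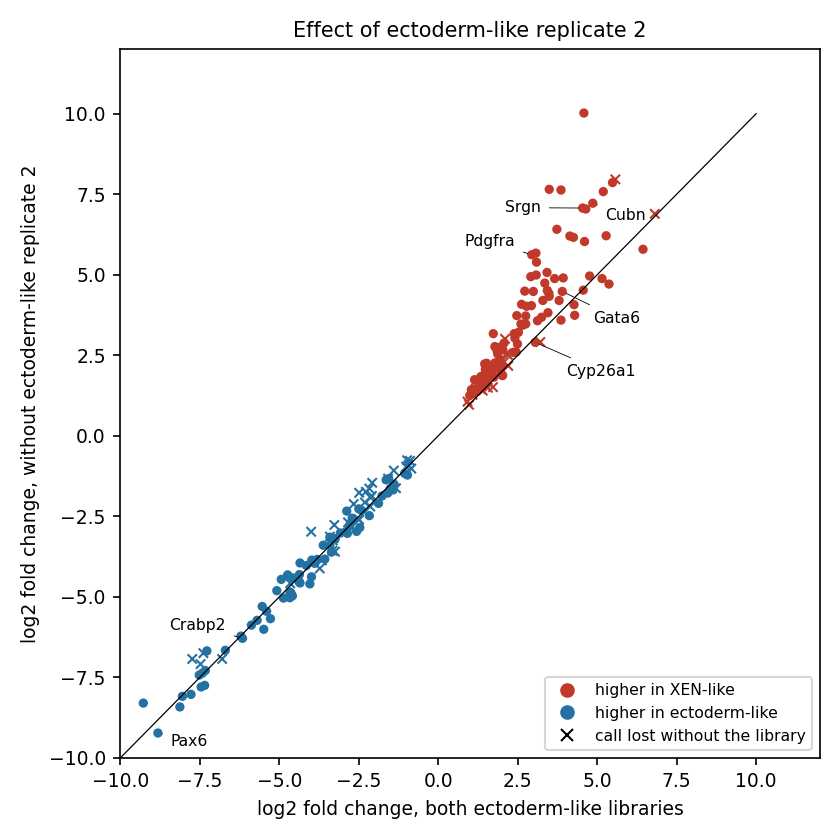
Log2 fold change of the called genes that the naming rule covers, fitted with both ectoderm-like libraries (horizontal axis) and without ectoderm-like replicate 2 (vertical axis); each point is a gene, crosses are calls lost without the library, and the line marks equality. Points with a group at 0 UMIs depend on the prior count. Pdgfra moves from 2.94 to 5.62 and Srgn from 4.54 to 7.07, whereas Crabp2 stays near the line at -6.16 and -6.29.

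On the ectoderm-like side, transcription factors of the neural lineage formed the counterpart. Of 35 listed 23 were tested, and 19 of these were higher on the ectoderm-like and 0 on the XEN-like side (82.6% against 5.74% of all genes). The median log2 fold change was -4.37, or -3.41 when genes without a UMI in XEN-like cells are placed at their bound. Part of this share is set by the count filter. A gene almost absent from XEN-like cells can be tested only through other libraries, such as the ectoderm-like ones where it is high. Pax6, a factor of the neural tube and eye, had no UMI in either XEN-like library and 46.7 and 21.3 CPM in the ectoderm-like libraries, at least 34.8-fold higher (adjusted p = 0.00167). This and the other lower bounds set 3 UMIs over the pair of libraries at 0. Sox1, an early marker of neural fate, had 1 UMI in the XEN-like libraries and 26.1 and 22.6 CPM in the ectoderm-like libraries, a difference of 75.1-fold (95% counting interval 13.1 to 3003). Sox11 had 3.05 and 1.82 CPM in XEN-like and 64.5 and 69.8 CPM in ectoderm-like libraries (log2 fold change -4.59, SE 0.54, adjusted p = 0.000894), and Sox4 had 4.06 and 1.82 against 57.8 and 43.9 CPM (log2 fold change -3.89, adjusted p = 0.00116). Meis2 and Meis1, homeodomain cofactors of the Hox proteins, differed in size. Meis2 had 5.08 and 1.82 against 103 and 65.3 CPM (log2 fold change -4.37, adjusted p = 0.00256). Meis1, in contrast, had 53.3 and 38.3 CPM in XEN-like libraries against 152 and 108 CPM (log2 fold change -1.39, adjusted p = 0.0135), a call that held only without ectoderm-like replicate 2 among the refits that left out 1 sorted library. Rfx4, Zic2 and Nr2f2 were also higher in ectoderm-like cells (adjusted p = 0.00192, 0.00118 and 0.00769), and the Nr2f2 call was lost without XEN-like replicate 1 or ectoderm-like replicate 1. Without ectoderm-like replicate 2 the list had 14 calls, and 14, 10 and 9 without XEN-like replicate 2, ectoderm-like replicate 1 and XEN-like replicate 1. Pou3f2, Sox3 and Hes5, like Pax6, had no UMI in either XEN-like library.

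Genes that serve neural progenitors in adhesion, growth and the cytoskeleton were called in 19 of 28 tested cases (67.9%), all in the ectoderm-like direction. Cd24a, the gene of the other sort antigen, is counted among them, and its call adds nothing to the list. Cdh2 (N-cadherin) had 1.52 and 0 CPM in the XEN-like libraries, 3 UMIs in all, and 87.3 and 73.7 CPM in the ectoderm-like libraries, a difference of 82.8-fold (95% counting interval 28.0 to 404), with adjusted p = 0.000262. Ptn (pleiotrophin), a heparin-binding growth factor, had 1 UMI in the XEN-like libraries and 117 and 67.2 CPM in the ectoderm-like libraries, a difference of 288-fold (95% counting interval 51.3 to 11397), with adjusted p = 0.000343. Its relative Mdk (midkine) was abundant on both sides, with 429 and 166 against 1054 and 534 CPM (log2 fold change -1.33, SE 0.39, adjusted p = 0.046). XEN-like replicate 1 and ectoderm-like replicate 2 of Mdk lay close together, and the call was lost without ectoderm-like replicate 1 or 2 or XEN-like replicate 2. Ednrb, an endothelin receptor, had 1.02 and 0 against 127 and 116 CPM, a difference of 187-fold (95% counting interval 51.4 to 1548) on 2 XEN-like UMIs (adjusted p = 0.000198), and Gpc3, a cell surface heparan sulfate proteoglycan, had 13.7 and 5.47 against 266 and 193 CPM (log2 fold change -4.40, adjusted p = 0.0013). The intermediate filament gene Nes had 2.03 and 2.73 against 28.9 and 24.6 CPM (log2 fold change -3.41, SE 0.50, adjusted p = 0.00192), and Prtg had 38.6 and 29.2 against 278 and 228 CPM (log2 fold change -2.79, SE 0.31, adjusted p = 0.00069). Fabp5, which carries fatty acids and RA, had 56.4 and 51.0 against 317 and 528 CPM (log2 fold change -2.88, adjusted p = 0.00308). Tubb3 and Stmn2, markers of neurons, were not called. Tubb3 had 25.4 and 18.2 CPM in XEN-like, 16.7 and 56.9 CPM in ectoderm-like and 87.1 and 50.1 CPM in mESC libraries, and Stmn2 had its highest levels in mESCs (358 and 849.7 CPM, against 50.6 and 34.2 CPM in ectoderm-like libraries). When any 1 sorted library was left out, 13 or 14 genes of this list were called in the ectoderm-like direction. In the opposite direction 1 gene was called without XEN-like replicate 2 (Basp1, log2 fold change 2.07, adjusted p = 0.0419) and 1 without ectoderm-like replicate 2 (Tubb2a, log2 fold change 1.69, adjusted p = 0.0462).

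Of 13 tested cadherin and mesenchymal transition genes 4 were higher in ectoderm-like cells (30.8%) and 1 was higher in XEN-like cells (7.69%, near the 6.99% of all genes tested). Snai1, a repressor of E-cadherin, had 17.3 and 9.11 CPM in XEN-like and 0 and 2.58 CPM in ectoderm-like libraries (log2 fold change 3.49, adjusted p = 0.0199). Zeb2, a repressor of the same target, had 0.508 and 0.911 against 26.1 and 11.0 CPM, a difference of 29.3-fold (95% counting interval 7.79 to 247) on 2 XEN-like UMIs (adjusted p = 0.00566). Cdh1 (E-cadherin) itself had 8.13 and 9.11 CPM in XEN-like, 10.6 and 12.9 CPM in ectoderm-like and 74.4 and 91.8 CPM in mESC libraries, and was not called between the sorted populations. The Snai1 call was lost without either XEN-like replicate or without ectoderm-like replicate 1, and the Zeb2 call without XEN-like replicate 1 or ectoderm-like replicate 1. Leaving out 1 sorted library gave 1 or 2 calls in the ectoderm-like direction in this list, and in the XEN-like direction 2 without ectoderm-like replicate 2 and 0 without each of the others.

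Of 27 Hox genes only 6 had enough counts, and 4 of these (Hoxb2, Hoxa2, Hoxb3 and Hoxb9) were higher in ectoderm-like cells. Hoxb2, a target of RA in the hindbrain, had 5.59 and 4.56 CPM in XEN-like libraries and 389 and 117 CPM in ectoderm-like libraries (log2 fold change -5.49, SE 0.59, adjusted p = 0.00069), and replicate 1 was the higher of the latter. The calls on Hoxa2 and Hoxb3 were each lost in all 4 refits without a sorted library and that on Hoxb9 in 3 of them, whereas Hoxb2 was called in all 4. Ectoderm-like replicate 2 was the lower of its group for all 6 genes tested. Hoxb1, Hoxb5, Hoxb8 and Hoxc8 had enough counts for a test only once that library was left out. The filter then keeps a gene with enough counts in a single library, so they could enter through ectoderm-like replicate 1 alone. They are not read as further differences.

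Some genes that bind, make and degrade RA were called, most of them higher in ectoderm-like cells, although both populations had received the same RA. The cellular RA-binding proteins were the steepest: Crabp2 had 16.3 and 19.1 CPM in the XEN-like libraries and 1591 and 1112 CPM in the ectoderm-like libraries (log2 fold change -6.16, SE 0.34, adjusted p = 7.63e-06), and Crabp1 had 13.7 and 14.6 against 645 and 762 CPM (log2 fold change -5.54, SE 0.44, adjusted p = 0.000198). In mESCs Crabp2 had 19.7 and 15.7 CPM, as low as in XEN-like cells. Crabp2 and Nes are neighbours on chromosome 3 (chr3:87948693-87953372 and chr3:87971093-87980451 of GRCm38), 17721 bases apart. Rdh10, which oxidises retinol on the way to RA, had 4.06 and 5.47 against 15.0 and 27.1 CPM (log2 fold change -2.08, adjusted p = 0.0268), a call lost whenever 1 sorted library was left out. Cyp26a1, the enzyme that degrades RA, went the other way, with 270.2 and 148 CPM in XEN-like and 32.2 and 21.3 CPM in ectoderm-like libraries against 0.875 and 0.871 CPM in mESCs (log2 fold change 3.05, SE 0.34, adjusted p = 0.000796). For Cyp26a1 ectoderm-like replicate 2 was below replicate 1, unlike for the XEN markers, and the log2 fold change without it was 2.90, adjusted p = 0.00736. The RA receptor gene Rarb had 16.8 and 5.47 CPM in XEN-like and 25.0 and 9.04 CPM in ectoderm-like libraries, and Stra8 had 48.8 and 7.29 CPM in XEN-like and 82.8 and 9.69 CPM in ectoderm-like libraries, with overlapping groups. For both genes replicate 1 was the higher one in each population. In all, 4 of 15 retinoid genes tested were higher in ectoderm-like cells (26.7%, against 5.74% of all genes tested). In the XEN-like direction 1 was called (6.67%, near the 6.99% of all genes tested). Fewer were called in the ectoderm-like direction without XEN-like replicate 1.

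The window around the start of Cyp26a1 (RefSeq on GRCm38.p6, chr19:37697558-37697857, plus strand) is shown because the gene is induced by RA through its promoter. Capitals mark a direct repeat of AGTTCA with 5 bases of any kind between its copies, a form of the RA response element, found here on the other strand. The bases between the copies are in lower case.
Cyp26a1: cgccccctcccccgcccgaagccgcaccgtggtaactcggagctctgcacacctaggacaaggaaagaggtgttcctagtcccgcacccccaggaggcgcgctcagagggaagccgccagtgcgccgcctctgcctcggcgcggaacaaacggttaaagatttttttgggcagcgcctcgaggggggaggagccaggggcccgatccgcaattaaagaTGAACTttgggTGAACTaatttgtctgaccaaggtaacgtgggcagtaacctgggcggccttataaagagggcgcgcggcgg
The repeat lies at -32 to -16 from the start. It was found in 8 of the 32851 windows (0.0244%), and it was searched for after the values of the gene had been seen. Both populations had Cyp26a1 above the mESC level, and the window says nothing of the difference between them.

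The XEN-like cells carried more RNA of several pluripotency genes than the ectoderm-like cells did, and 1 such gene went the other way. Of 20 tested, 6 (Zfp42, Pou5f1, Klf4, Dppa5a, Klf2 and Tbx3) were higher in XEN-like cells (30.0%, against 6.99% of all genes tested). Only Sox2 was higher in ectoderm-like cells (5.0%, near the 5.74% of all genes tested). Dppa5a, an RNA-binding protein of mESCs, was among the most abundant called transcripts, with 5947 and 4351 CPM in XEN-like, 494 and 273 CPM in ectoderm-like and 10994 and 15849 CPM in mESC libraries (log2 fold change 3.86, SE 0.34, adjusted p = 0.000262). Pou5f1 (Oct4) had 60.4 and 16.4 CPM in XEN-like, 3.33 and 0.646 CPM in ectoderm-like and 265 and 292 CPM in mESC libraries (log2 fold change 4.29, SE 0.66, adjusted p = 0.00253). Klf4 had 42.7 and 26.4 against 3.33 and 5.17 CPM (log2 fold change 3.12, SE 0.42, adjusted p = 0.0014), with 64.7 and 74.9 CPM in mESCs, so that XEN-like cells kept a level nearer to mESCs than to ectoderm-like cells in replicate 1. Zfp42 (Rex1) had 82.8 and 46.5 against 20.6 and 13.6 CPM (log2 fold change 2.02, SE 0.34, adjusted p = 0.00341) and 1109 and 789 CPM in mESCs. Sox2, used both in pluripotent and in neural cells, had 1.52 and 3.65 CPM in XEN-like, 55.0 and 50.4 CPM in ectoderm-like and 85.7 and 131 CPM in mESC libraries (log2 fold change -4.37, SE 0.51, adjusted p = 0.000853). Nanog had 96.0 and 52.9 against 205 and 78.8 CPM, with overlapping groups, and was not called. Esrrb, Nr0b1 and Tdgf1, with between 66.1 and 496 CPM in mESCs, were at 5.56 CPM or less in all 4 sorted libraries. Of the 6 genes on the XEN-like side, Dppa5a, Pou5f1, Klf4 and Zfp42 were called in every refit without 1 sorted library, and Klf2 and Tbx3 were lost without XEN-like replicate 1 or either ectoderm-like replicate. Ectoderm-like replicate 2 was below replicate 1 for Dppa5a, Pou5f1, Zfp42 and Tbx3. Dnmt3l, a cofactor of de novo DNA methylation, was the only call among 12 genes of the DNA methylation machinery (8.33%, near the 6.99% of all genes tested). It had 129.5 and 65.6 CPM in XEN-like, 6.67 and 3.88 CPM in ectoderm-like and 74.4 and 27.4 CPM in mESC libraries (log2 fold change 4.27, SE 0.55, adjusted p = 0.00118).

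Signalling genes differed in both directions. In the FGF pathway, which drives ERK, 4 of 12 tested genes were higher in ectoderm-like cells (33.3%) and 2 were higher in XEN-like cells (16.7%). The shares over all genes tested were 5.74% and 6.99%. The ligand Fgf15 had 1 UMI in the XEN-like libraries and 47.2 and 84.0 CPM in the ectoderm-like libraries, a difference of 197-fold (95% counting interval 35.0 to 7815), with adjusted p = 0.000675. The receptor Fgfr1 had 2.54 and 0 against 38.9 and 16.2 CPM (log2 fold change -3.99, adjusted p = 0.0046). The Fgfr1 call was lost without ectoderm-like replicate 1. This list had between 3 and 5 calls in the ectoderm-like direction when 1 sorted library was left out, and in the XEN-like direction 1 without XEN-like replicate 1 or ectoderm-like replicate 1 and 2 without either of the others. Of the phosphatases that act on ERK, Dusp6 was higher in ectoderm-like cells (2.54 and 6.38 against 68.4 and 36.8 CPM; log2 fold change -3.57, SE 0.59, adjusted p = 0.00321) and Dusp9 in XEN-like cells (191 and 118 against 13.9 and 20.7 CPM; log2 fold change 3.25, SE 0.45, adjusted p = 0.00155). In the BMP and Nodal list 7 of 18 were higher on the ectoderm-like (38.9%) and 3 on the XEN-like side (16.7%). The ligands divided by member. Bmp4 had 1 UMI in the XEN-like libraries against 10.0 and 16.2 CPM in the ectoderm-like libraries, a difference of 39.4-fold (95% counting interval 6.7 to 1592), with adjusted p = 0.0054, whereas Bmp2 had 25.4 and 13.7 against 2.78 and 7.11 CPM (log2 fold change 2.10, adjusted p = 0.0362). The Bmp2 call was lost in each refit without 1 sorted library, and the Bmp4 call without XEN-like replicate 1. Id1, Id2 and Id3, direct targets of BMP signalling that restrain differentiation factors, were higher in ectoderm-like cells, whereas Id4 had too few UMIs to be tested. Id3 had 17.8 and 13.7 against 609.7 and 393 CPM (log2 fold change -4.87, SE 0.53, adjusted p = 0.00069), Id2 had 37.6 and 79.3 against 328 and 384 CPM (log2 fold change -2.50, adjusted p = 0.00253), and Id1 had 6.09 and 10.0 against 73.9 and 47.8 CPM (log2 fold change -2.86, adjusted p = 0.00272). Leaving out 1 sorted library gave between 3 and 5 calls in the ectoderm-like and 1 or 2 in the XEN-like direction in the BMP list, with 3 in the ectoderm-like direction without XEN-like replicate 1.

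In the Wnt list 4 of 16, or 25.0%, were higher in ectoderm-like cells (Fzd2, Fzd3, Sfrp1 and Sfrp2), against 5.74% of all genes tested. The only call in the XEN-like direction was Dkk1 (6.25%, near the 6.99% of all genes tested). Dkk1, a secreted inhibitor of the Wnt coreceptor, had 179.8 and 159 CPM in XEN-like and 6.11 and 36.8 CPM in ectoderm-like libraries (log2 fold change 3.08, SE 0.59, adjusted p = 0.007). Sfrp2, a secreted modulator of Wnt, had 2 UMIs in XEN-like libraries and 42.8 and 35.5 CPM in ectoderm-like libraries, a difference of 60.5-fold (95% counting interval 16.4 to 504), with adjusted p = 0.00117. The receptor Fzd2 had 1.52 and 4.56 against 46.7 and 46.5 CPM (log2 fold change -3.98, adjusted p = 0.00226). In the Notch list 4 of 8, or 50.0%, were higher in ectoderm-like cells (Notch1, Notch2, Jag1 and Hes5) and 0 in XEN-like cells. Notch2 had 14.2 and 4.56 against 42.2 and 48.5 CPM (log2 fold change -2.09, adjusted p = 0.00938), and the target Hes5 had no UMI in the XEN-like libraries against 9.45 and 7.11 CPM, at least 8.46-fold higher. This group depended on single libraries: none of its genes was called without either ectoderm-like replicate, and 1 was called without either XEN-like replicate.

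Regulators of the G1 phase were higher in ectoderm-like cells in 6 of 16 tested cases (37.5%, against 5.74% of all genes tested). The D-type cyclins, which start the cycle in response to growth factors, were among them. Ccnd1 had 7.11 and 2.73 CPM in XEN-like and 95.6 and 136 CPM in ectoderm-like libraries (log2 fold change -4.35, SE 0.43, adjusted p = 0.000536), and Ccnd2 had 36.1 and 78.4 against 524 and 404 CPM (log2 fold change -2.91, SE 0.39, adjusted p = 0.00137). Cdkn1c, an inhibitor of cyclin-dependent kinases and itself imprinted, had 3.56 and 2.73 against 34.5 and 31.7 CPM (log2 fold change -3.24, SE 0.46, adjusted p = 0.00178). Mycn had 58.4 and 52.9 against 20.0 and 34.9 CPM and was not called (adjusted p = 0.0635), whereas Myc was higher in ectoderm-like cells (log2 fold change -2.17, adjusted p = 0.0262; lost without XEN-like replicate 1 or ectoderm-like replicate 1). Leaving out 1 sorted library gave 3 or 4 calls among the G1 genes in the ectoderm-like direction and, without ectoderm-like replicate 2, 1 in the XEN-like direction (Mycn, log2 fold change 1.69, adjusted p = 0.045). Of 24 S phase genes 2 were called higher in ectoderm-like cells (8.33%; Mcm7 and Pola1; 0 without either XEN-like replicate or ectoderm-like replicate 1), and of 24 genes of G2 and mitosis 0 by edgeR and 0 by DESeq2, with a median log2 fold change of -0.06, the median of all genes tested. Of the 24 mitotic genes 2 had an unadjusted p under 0.05 by edgeR, Birc5 and Kif23. Some mitotic genes differed more between replicates than between populations. Mki67 had 84.3 and 8.2 CPM in XEN-like libraries and 111 and 22.0 CPM in ectoderm-like libraries, with replicate 1 above replicate 2 in both. Cenpe showed the same order, with 130.0 and 10.0 CPM in XEN-like and 113 and 32.9 CPM in ectoderm-like libraries. This order was not particular to mitotic genes. Ankrd11, chosen after its values were seen, had 36.6 and 5.47 CPM in XEN-like and 72.3 and 14.9 CPM in ectoderm-like libraries. Of all genes tested, 61.9% were higher in XEN-like replicate 1 than in replicate 2, and 42.4% were higher in ectoderm-like replicate 2 than in replicate 1. The growth-associated genes Hmga1, Hmga2 and Lin28b, active in fetal cells and shut off later, were higher in ectoderm-like cells, Hmga1 with 8.13 and 2.73 against 198 and 127 CPM (log2 fold change -4.67, SE 0.42, adjusted p = 0.000262) and 137 and 154 CPM in mESCs. Lin28a had 181 and 143 CPM in XEN-like and 166 and 155 CPM in ectoderm-like libraries and was not called. The Lin28b call was lost without ectoderm-like replicate 1, and the Hmga2 call without XEN-like replicate 2 or either ectoderm-like replicate.

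Imprinted genes, of which cells read only the maternal or the paternal copy, were higher in ectoderm-like cells in 12 of 22 tested cases (54.5%) and higher in XEN-like cells in 0. Mest, read from the paternal copy, had 27.4 and 18.2 CPM in XEN-like libraries and 441 and 439 CPM in ectoderm-like libraries, where the replicates lay close together (log2 fold change -4.15, SE 0.43, adjusted p = 0.000675). Grb10, which restrains growth factor receptors, had 11.7 and 9.11 against 109 and 131 CPM (log2 fold change -3.41, SE 0.52, adjusted p = 0.00256). Peg10 had 4.06 and 7.29 against 153 and 40.7 CPM (log2 fold change -4.04, SE 0.67, adjusted p = 0.00321), and Peg3 had 51.8 and 21.9 against 149 and 91.7 CPM (log2 fold change -1.59, adjusted p = 0.0192; lost without XEN-like replicate 2 or ectoderm-like replicate 1). Copg2 had 28.4 and 29.2 against 197 and 207 CPM (log2 fold change -2.71, SE 0.29, adjusted p = 0.00069), a value that is uncertain because its annotation (chr6:30747554-30896815) shares 912 bases with that of Mest (chr6:30733506-30748466), so that reads could be assigned to either. Igf2 and H19, neighbours under 1 control region, were not called, with 44.7 and 51.0 against 69.5 and 117 CPM and 5.59 and 9.11 against 12.2 and 8.4 CPM. Impact and Gnas differed by 0.15 or less on the log2 scale. Leaving out 1 sorted library gave 6 or 7 calls in this list, and Mest, Grb10, Peg10, Copg2 and Cdkn1c were called in all 4 refits.

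**Figure D4:**
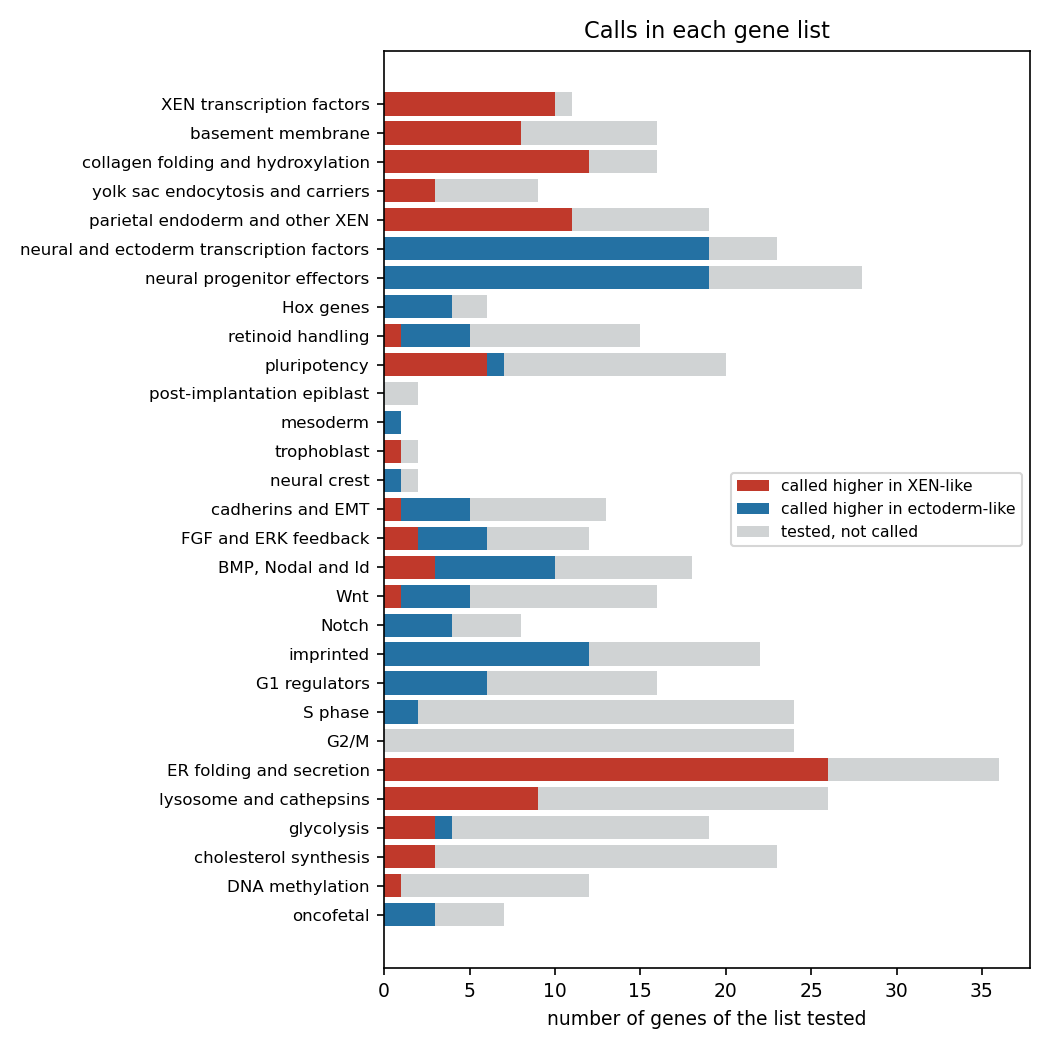
Number of tested genes in each of the 29 gene lists, split into those called higher in XEN-like cells (red), those called higher in ectoderm-like cells (blue) and those not called (grey); the horizontal axis counts genes, and 35 list entries repeat a gene of another list. ER folding, with 26 of 36, has the most red, the neural lists and the imprinted genes have only blue among their calls, and G2/M has no call.

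Metabolic genes were called in both directions. Of 19 glycolytic genes 3 were higher on the XEN-like (15.8%, against 6.99% of all genes tested) and 1 on the ectoderm-like side (5.26%, against 5.74%). Aldoa had 1894 and 2783 against 769.7 and 1239 CPM (log2 fold change 1.34, adjusted p = 0.0322) and Ldhb, the lactate dehydrogenase subunit more common in oxidative tissue, had 44.7 and 65.6 against 161 and 192 CPM (log2 fold change -1.58, adjusted p = 0.0189). The Aldoa call was lost without XEN-like replicate 2 or ectoderm-like replicate 1, and the Ldhb call without XEN-like replicate 1 or either ectoderm-like replicate. Gapdh had 2802 and 2321 CPM in XEN-like and 2689 and 2769 CPM in ectoderm-like libraries and was not called. Of 23 genes of cholesterol synthesis 3 were called, each higher in XEN-like cells (13.0%), the largest Insig1, a sterol sensor, with 265 and 432 against 44.5 and 87.2 CPM (log2 fold change 2.52, SE 0.40, adjusted p = 0.00277), and only 1 was called without ectoderm-like replicate 1. The 3 glycolytic calls on the XEN-like side were 0 without XEN-like replicate 2 and without ectoderm-like replicate 1.

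Genes of other lineages were checked as possible further content of the gates. Of 9 mesoderm genes only Twist1 was testable, with 2.03 and 0 CPM in XEN-like and 17.8 and 10.3 CPM in ectoderm-like libraries (log2 fold change -3.33, adjusted p = 0.0147), a call that was lost without XEN-like replicate 2 or either ectoderm-like replicate. The summed level of the 9 was between 3.65 and 21.7 CPM in the 4 sorted libraries, and between 5 and 7 of them were at 0. Post-implantation epiblast genes summed to between 30.1 and 69.5 CPM, and neither of the 2 tested (Dnmt3a and Dnmt3b) was called by edgeR or DESeq2. Trophoblast genes summed to between 22.6 and 74.7 CPM. Plac1, a placental gene, carried most of this in XEN-like libraries, with 64.5 and 52.0 against 2.22 and 7.75 CPM (log2 fold change 3.66, SE 0.51, adjusted p = 0.00153). Among neural crest genes Sox9 was higher in ectoderm-like cells (2.03 and 1.82 against 13.9 and 10.3 CPM; log2 fold change -2.51, adjusted p = 0.0182), a call lost in all 4 refits, and the list summed to between 11.8 and 35.6 CPM.

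The genes of largest fold outside these lists were mostly of low level. On the XEN-like side Slc44a3, a choline transporter-like gene, had 36.1 and 23.7 CPM against 0.556 and 0 CPM, 1 UMI in the ectoderm-like libraries in all and a difference of 106-fold (95% counting interval 18.6 to 4225), with adjusted p = 0.000929. Adora1, an adenosine receptor, had 6.09 and 10.0 CPM and no UMI in the ectoderm-like libraries, at least 8.99-fold higher (adjusted p = 0.0105, lost in all 4 refits). Nostrin, a trafficking protein, had 152 and 50.1 against 3.89 and 1.94 CPM (log2 fold change 5.15, SE 0.62, adjusted p = 0.000936), and its ectoderm-like replicate 2 was not raised over replicate 1. On the ectoderm-like side Foxb1, a forkhead factor of the developing diencephalon and hindbrain, had no UMI in XEN-like and 24.5 and 68.5 CPM in ectoderm-like libraries, at least 47.5-fold higher (adjusted p = 0.00171). The ephrin receptor Epha7 (21.1 and 18.7 CPM) and the semaphorin receptor Plxna2 (26.7 and 15.5 CPM) had no UMI in XEN-like cells either, at least 20.4-fold and 21.6-fold higher, and the Plxna2 call was lost without ectoderm-like replicate 1. Hbb-y, an embryonic globin, had no UMI in XEN-like cells and 9.45 and 22.6 CPM in ectoderm-like cells, at least 16.4-fold higher (adjusted p = 0.00532), a call lost without XEN-like replicate 1 or ectoderm-like replicate 2.

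Several of the most abundant called genes had small folds. Ftl1 and Fth1, the ferritin subunits that store iron, were higher in XEN-like cells, Ftl1 with 14409.7 and 13309.9 against 7743 and 8027 CPM (log2 fold change 0.92, adjusted p = 0.0403) and Fth1 with 1857 and 2374 against 742 and 1328 CPM (log2 fold change 1.14, adjusted p = 0.038). The Ftl1 call was lost in all 4 refits, and that on Fth1 without XEN-like replicate 2 or ectoderm-like replicate 1. On the ectoderm-like side Rpl22l1, a paralog of a ribosomal protein, had 289 and 302 against 869 and 1003 CPM (log2 fold change -1.56, adjusted p = 0.00432), a call lost without XEN-like replicate 1. Gm15421 moved with it, with 204 and 211 against 626 and 768 CPM (log2 fold change -1.64, adjusted p = 0.00344). Both values are uncertain where reads of a gene and of near-identical copies were not told apart, which was not tested. Called genes higher in XEN-like cells made up 15.6% and 14.0% of the UMIs of the XEN-like libraries, 4.66% and 5.69% of the ectoderm-like libraries and 7.92% and 9.04% of the mESC libraries. Those higher in ectoderm-like cells made up 4.61% and 3.88% of the ectoderm-like, 1.29% and 1.11% of the XEN-like and 1.98% and 2.03% of the mESC libraries. These shares describe the chosen genes and were not tested. The median level of the genes higher in XEN-like cells was 79.0 CPM in XEN-like, 21.0 CPM in ectoderm-like and 22.5 CPM in mESC libraries, and that of the genes higher in ectoderm-like cells was 4.16, 26.5 and 6.11 CPM. Of the former 71 (11.4%) and of the latter 107 (20.8%) had under 1 CPM in mESCs.

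Sorts at 72 h, 1 library each, gave values from samples that took no part in the comparison. PDGFRA+/CD24- cells were set against the mean of 3 PDGFRA- sorts that divided the cells by terciles of CD24, labelled T1, T2 and T3, in which Cd24a had 49.7, 122 and 256 CPM. Of the genes called higher in XEN-like cells at 96 h, 618 had at least 10 UMIs in these 4 libraries, and 609 (98.5%) were also higher in PDGFRA+ cells. Of those called higher in ectoderm-like cells 498 of 501 (99.4%) were lower there. Among all genes tested, 40.8% were higher and 59.2% lower in PDGFRA+ cells. The median log2 ratio of CPM plus 1 was 1.45 for the former set, -1.84 for the latter and -0.16 for all genes. Gata6 had 102 CPM in the PDGFRA+ library and 11.7, 6.18 and 3.84 CPM in T1, T2 and T3. Crabp2 had 16.9 CPM and 759, 1128 and 1641 CPM in the same order. Col4a1 was at 98.5 CPM in PDGFRA+ cells at 72 h, below the level of either XEN-like library at 96 h, whereas Sox17 was at 202 CPM, above both. The exceptions included named genes: Zfp42 had 60.3 CPM in PDGFRA+ cells but 128 CPM in T1 and 23.0 CPM in T3. Rdh10 had 8.08 CPM against 6.99, 3.53 and 10.7 CPM. With 1 library each, the 72 h values have no replicate check.

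**Figure D5:**
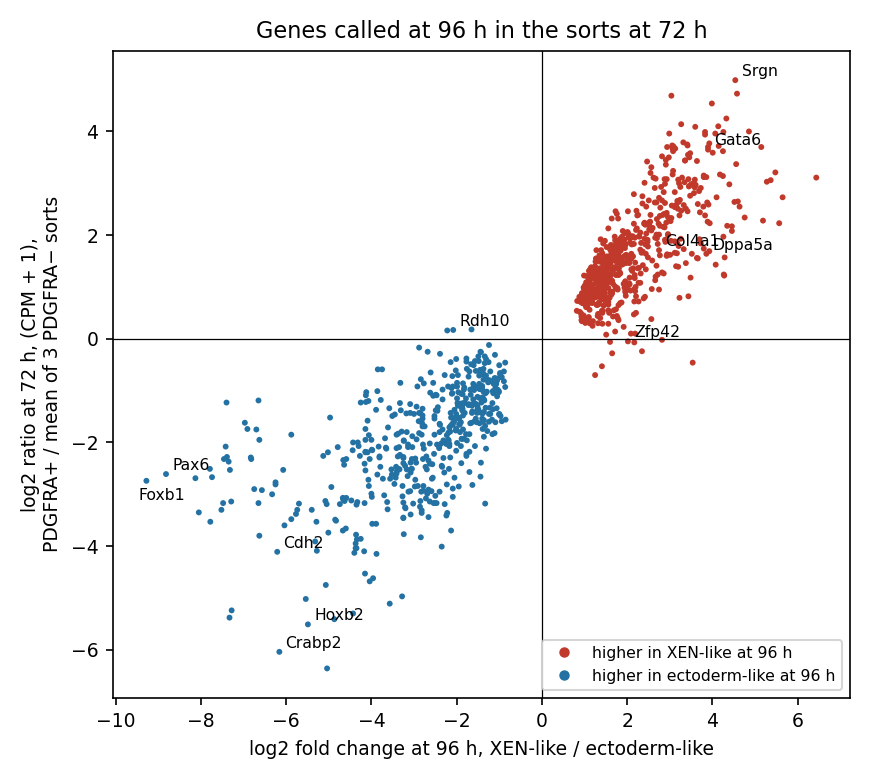
Genes called at 96 h with at least 10 UMIs in the 72 h libraries: log2 fold change at 96 h (horizontal axis) against the log2 ratio of CPM plus 1 at 72 h between PDGFRA+ cells and the mean of 3 PDGFRA- sorts (vertical axis). Each point is a gene, red where higher in XEN-like and blue where higher in ectoderm-like cells at 96 h; 609 of 618 red points lie above 0 and 498 of 501 blue points below it.

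The unsorted culture at 96 h, 1 library, had not been divided by the sort. Its level lay between the means of the sorted groups for 492 of 514 genes higher in ectoderm-like cells (95.7%) and for 513 of 625 genes higher in XEN-like cells (82.1%). The share over all genes tested was not computed. Genes chosen for a gap between these means tend to have other libraries fall between them, so these shares are a description only. Of the others on the XEN-like side, 111 were above the mean of the XEN-like libraries and 1 was below that of the ectoderm-like libraries. Col4a1 had 1563 CPM in the unsorted culture, above both XEN-like libraries, and Col4a2 had 449 CPM. Sparc had 6201 CPM, also above both. Dab2 (908 CPM) and Gata6 (93.8 CPM) were instead near the level of the lower XEN-like library. On the ectoderm-like side Crabp2 had 496 CPM and Mest 234 CPM, between the groups. A least-squares mixture of the mean sorted profiles over the called genes, each weighted by the inverse of its mean, gave a XEN-like share of 71.9%, in units of RNA rather than of cells, with no replicate to give its error. A single share did not describe both sides: the 11 XEN markers stood at a median of 115% of the XEN-like mean in the unsorted culture (range 64.2% to 216%), and the 13 ectoderm markers at a median of 42.1% of the ectoderm-like mean (22.6% to 89.5%). Whether the unsorted culture was grown together with the sorted ones is not given in the sources used here.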

How the data were processed

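The authors sequenced the 3′ ends of mRNAs and, per the labels and methods, aligned the reads with BWA 0.7.4 to RefSeq mRNAs of mm10. They deposited raw counts of unique UMIs per gene, 1 column a library, for 25 bulk libraries, of which 14 were read here. Strand use is not given in the sources used here. The members and gene lists were chosen with earlier results of these data known. From the deposited counts, Rn45s and Gkn2 were left out, 8947 of 23481 genes passed filterByExpr at its default settings, and edgeR 4.0.16 (TMM factors, quasi-likelihood test in R 4.3.3, group means only) was fitted to 6 libraries: 2 XEN-like, 2 ectoderm-like and 2 mESC. DESeq2 1.42.0 was an alternative. The filter keeps a gene with enough counts in as few libraries as the smallest group has. A gene high in a single population can therefore enter the test through that population, which in part sets the shares of lists called. Calls had a Benjamini-Hochberg adjusted p under 0.05 over all genes tested. An exact permutation test of 2 against 2 libraries cannot go below p = 0.333, so none was used. Each p-value weighs a difference against the spread between replicate libraries of all 3 groups, which the fit draws towards that of other genes. The gene's own spread has 3 degrees of freedom, against 8.379 borrowed from other genes. The 6 libraries held between 1097157 and 2297379 UMIs. Intervals (95%, exact) and lower bounds cover counting error only. Tested on simulated data of 8667 genes made for this comparison, the fit recovered 14% of 2-fold and 92% of 4-fold changes, none in the wrong direction, with 7 unchanged genes called. The simulation gave every gene the same spread, made replicates independent and changed only genes with enough expected counts. It therefore says nothing of recovery among low-count genes or with a library that stands apart. Named were members of the lists, the 15 called genes of largest fold (at least 10 UMIs in each library of the higher group) and the 10 of highest level in each direction, Pdgfra, Cd24a, Gapdh and Actb. Of these, some genes are not reported here. Promoter windows are those of RefSeq, 250 bases before to 50 after a start. The single-cell files were not used.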

Additional observations from a re-analysis of the deposited data

How the results depend on the processing

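No called gene changed direction under any alternative in which it was still tested. The lack of overlap between the groups in every called gene nearly fixed this in advance. With DESeq2 496 and 283 genes were higher on the XEN-like and the ectoderm-like side, without a filter on low counts 839 and 828, with library totals in place of TMM factors 497 and 522, with DESeq2's size factors in edgeR 649 and 482, and with the 4 sorted libraries alone 695 and 566. Leaving out 1 library, mESC libraries included, gave between 151 and 745 genes higher in XEN-like and between 145 and 626 higher in ectoderm-like cells, both fewest without ectoderm-like replicate 1. These fits have fewer libraries, and the lone library left in a group is assumed to vary like the other groups. Equal replicate numbers deviated together across the 2 pairs (correlation 0.3255), but no source says that they share a culture. With the replicate number as a block, 744 and 595 genes were called, and Cenpe and Rbp4, not called, changed sign to -0.37 and 0.06.

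Of the genes called higher in XEN-like cells, 99.7% had the same direction at 72 h against the CD24 tercile labelled T3 alone. With at least 50 counts at 72 h it was 100.0% of the genes higher in ectoderm-like cells. Leaving out 1 sorted library gave between 98.1% and 98.9% and between 99.3% and 100.0%. Against the unsorted culture at 84 h in place of 96 h, 94.6% of the former and 90.3% of the latter lay between the groups, with TMM factors 88.6% of the former, and without 1 sorted library between 79.9% and 87.7% and between 95.0% and 97.2%. The share of UMIs in called genes follows the number called. Leaving out 1 sorted library, genes higher in XEN-like cells held between 4.83% and 11.1% of UMIs in XEN-like and between 1.04% and 2.65% in ectoderm-like libraries, and genes higher in ectoderm-like cells between 0.177% and 0.711% and between 1.55% and 3.26%. TMM factors leave these shares as they are.

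Among genes named but not called, the sign changed with library totals for Cenpe and Gapdh (log2 fold change -0.03 and -0.10) and without a filter for Gapdh (-0.00). Leaving out 1 library, the log2 fold change lay between -1.34 and 0.47 for Apoe, between -2.59 and 1.15 for Cenpe, between -0.04 and 0.15 for Gapdh, between -0.87 and 0.07 for H19, between -0.45 and 1.29 for Krt18, between -2.73 and 1.16 for Mki67, between -1.37 and 0.42 for Rarb, between -1.72 and 2.83 for Rbp4, between -1.38 and 0.27 for Stmn2, between -2.38 and 1.63 for Stra8, between -2.14 and 0.68 for Ttr and between -1.29 and 0.61 for Tubb3. The value of Rbp4 was past the threshold in opposite directions, at 2.83 without ectoderm-like replicate 2 and at -1.72 without replicate 1. The cause was not tested. The promoter letters were not counted over called genes, also not over those of at least 4-fold difference, since too few had a window.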
